A study of Rattus norvegicus with 8 samples.

Results

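The genes of membrane traffic were examined in the spinal cord of Lewis rats with experimental autoimmune encephalomyelitis (EAE), the animal model of multiple sclerosis. The set holds the Rab and Arf GTPases, the SNARE proteins other than the main synaptic ones, the sorting nexins, the Vps proteins and the coat, exocyst, TBC1D and Sec genes. Its members were taken by gene symbol alone. A transcript cluster entered when its only symbol began with Rab, Arf, Arl, Stx, Vamp, Snap, Snx, Vps or Sec and a number. Symbols beginning with Arfg, Tbc1d or Exoc also entered, as did Cop followed by a, b, e, g or z. Ap1 to Ap4 entered when followed by b, d, e, m or s and a number, which leaves out names such as Ap2a2. Names beginning with Rab3 or Stx1, and Vamp1, Vamp2, Snap25, Sec61, Sec62 and Sec63, were kept out, which left aside 20 clusters. The rule found 95 clusters of 95 different genes among 8793 clusters on the array.

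Total RNA of the whole spinal cord was hybridised to 1 Affymetrix Rat Exon 1.0 ST array for each of 8 virgin female Lewis rats, labelled as 16 weeks old; the methods give a younger age at injection. The MBP-EAE group was rats 217, 218, 219 and 241, which had been injected under the skin with myelin basic protein (MBP; 50 µg per rat), emulsified in incomplete Freund's adjuvant that held M. butyricum. The labels name guinea-pig brain as the source of the MBP, and the study's methods name a recombinant protein. The healthy control group was rats 193, 194, 195 and 196, untreated littermates of the same age, so that antigen and adjuvant differed between the groups together. All cords were taken at day 13, and none of the 8 rats received the adjuvant alone. Values are log2 intensities, so a difference of 1 is a doubling, and levels of different genes are not compared because each has its own probes.

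Rab and Arf proteins are small GTPases that switch between a GTP-bound form on a membrane and a GDP-bound form, and each recruits its effectors to particular membranes. SNARE proteins on a vesicle and on its target zip together to fuse the membranes. The retromer, the sorting nexins and the ESCRT complexes choose which cargo leaves an endosome for the Golgi or the cell surface and which is sent to the lysosome. Nerve cells use this machinery along the axon and at the synapse, oligodendrocytes use it to deliver myelin components, and phagocytes use it for engulfment, degradation and antigen presentation.

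The arrays correlated with each other at r = 0.967 to 0.991 within the healthy group, 0.985 to 0.993 within the MBP-EAE group and 0.923 to 0.950 between the groups, across all clusters. Healthy rat 195 stood apart by a narrower spread of values, with an interquartile range of 2.23 against 2.61 to 2.93 in the other 3 healthy rats, and it held the lowest healthy value for 48 of the 95 genes. In the MBP-EAE group rat 219 held the lowest value for 42 of the 95 genes. The tissue label was checked against its markers, and Slc5a7, the choline transporter of motor neurones, and Slc6a5, the glycine transporter of inhibitory spinal neurones, averaged 7.71 ± 0.39 and 7.47 ± 0.27 (SD, n = 4) in the healthy cords. The other 2 spinal markers were dimmer, Slc32a1, the vesicular transporter of inhibitory neurones, at 5.83 ± 0.09 and Isl1, a motor neurone factor, at 3.69 ± 0.13, which is below the lower quartiles of the healthy arrays (3.87 to 4.28). Of these 4 markers, Slc5a7 and Slc6a5 fell in MBP-EAE, by 0.78 and 0.54. Marker genes of blood-derived and resident cells also moved between the groups. All 10 measured markers of monocytes and macrophages rose, and their mean level was 4.94 to 5.08 in healthy rats and 8.81 to 9.11 in MBP-EAE rats. The markers of T cells rose for 6 of 7 genes, with mean levels of 3.86 to 4.31 and 5.66 to 5.79, and those of microglia for 3 of 3. Cd4 rose most in the T cell list, by 3.56, and the study also notes it on microglia in this model. Neuronal markers fell for 6 of 13 genes, with mean levels of 9.33 to 9.75 in healthy rats and 9.0 to 9.32 in MBP-EAE rats. Oligodendrocyte markers fell for 8 of 12 genes, with mean levels of 8.40 to 8.75 and 8.05 to 8.26. Astrocyte markers rose for 3 of 8 genes (Gfap, Gja1 and Slc1a3, by 0.69, 0.69 and 1.15), with mean levels of 9.35 to 10.16 and 9.62 to 10.13 that overlapped. Endothelial markers fell for 1 of 5 genes (Slco1c1, by 0.73), and of 2 red cell genes Hbb-b1 fell by 3.30, the largest fall on the array. The part of these cell types in the changes given below was not tested. In whole cord RNA, fewer cells of a type and less RNA per cell cannot be told apart.

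Upstream sequences were read from RefSeq (rat assembly GRCr8) for the 250 bases before the start that its promoter table gives, and 81 of the 95 genes had an entry. Only 28 of these windows lay outside the annotated span of their gene; 52 overlapped it, and for 1 no span was given. They were searched on both strands for 6 short motifs. The motif found most often relative to the array was the core of the CLEAR element, TCACGTGA, a palindrome bound by TFEB, the regulator of lysosome and autophagy genes. It lay in 8 of the 81 windows (9.88%), against 1.01% of 6222 genes on the array and 0.743% of 27457 rat genes. These are the matches, each shown because it carries that count, with 11 bases on either side where the window allowed and the motif in capitals:

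Arfgef2 (chr3:175966586-175966615, plus strand): cagtcacgtggTCACGTGAcgcgttgcaac
Arl2 (chr1:212875422-212875451, minus strand): cactcttgtggTCACGTGAtgacgaaggcg
Rab21 (chr7:52814978-52815007, minus strand): gcccgccgcggTCACGTGAcgcggagtgtg
Snap29 (chr11:97113328-97113357, minus strand): cggcttcccggTCACGTGAccgccgtgtct
Stx6 (chr13:69882530-69882559, plus strand): ggcgatctgggTCACGTGAgcttgagtgcg
Vps16 (chr3:138075627-138075656, plus strand): tggcggcctcaTCACGTGAccccggcgggc
Vps26a (chr20:30976890-30976910, minus strand): gtggcctacggTCACGTGAcg
Vps33a (chr12:38685466-38685495, plus strand): agcgactcaggTCACGTGAacggtccgtca
Vps33a (chr12:38685482-38685511, plus strand): tgaacggtccgTCACGTGAccgtgggcccc

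Vps33a, a subunit of the HOPS and CORVET tethers of late and early endosomes, had 2 copies, at bases -47 to -40 and -31 to -24 from the start. The motif lay in 3 of the 28 windows outside a gene span (Rab21, Snap29 and Stx6) and in 5 of the 52 that overlapped one. It was found upstream of 0 of 14 genes that were higher in MBP-EAE, 2 of 13 that were lower (Arl2 and Rab21) and 6 of 54 that did not pass the test, numbers too small to compare. The upstream windows of these genes were rich in G and C, with a median of 61.2 to 64.0% in the 3 classes against 56.4% for the genes on the array. They held a median of 17 to 20.5 CG pairs against 11, and since the motif contains CG, the part of base composition in its frequency was not tested. The other 5 motifs were the interferon-stimulated response element core (GAAA and GAAA with any 2 bases between), the gamma-activated site TTCNNNGAA, the kappaB site (GGGA and CC with any 4 bases between), the PU.1 site GAGGAAGT and the cyclic AMP response element TGACGTCA. They lay in 2.47%, 7.41%, 11.1%, 0% and 2.47% of the 81 windows, against 3.41%, 7.36%, 19.4%, 2.19% and 2.12% of the array genes. None of the 5 was found upstream of the 14 genes that were higher, which says only that these letters were not in these windows.

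The change in disease went in both directions. Of the 95 genes, 17 rose and 18 fell in the diseased cords, which is 36.8% of them (limma, adjusted p under 0.05 by Benjamini-Hochberg over all clusters). Over the whole array 25.9% of clusters were called, 11.3% higher and 14.6% lower. The groups did not overlap for 37 of the 95 genes (38.9%), against 29.3% of all clusters. The median log2 fold change of the 95 genes was -0.01, against -0.10 for all clusters. Changes past 2-fold were few, with 4 genes higher (Rab13, Vamp8, Sec11a and Rab27a) and 0 lower, against 423 and 76 of all clusters. The balance of directions moved with the scaling of the arrays. After cyclic loess between arrays 25 of the 95 genes were higher and 12 lower, so that the share of calls that were higher went from 48.6% to 67.6%, and over all clusters from 43.7% to 58.1%.

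**Figure D1:**
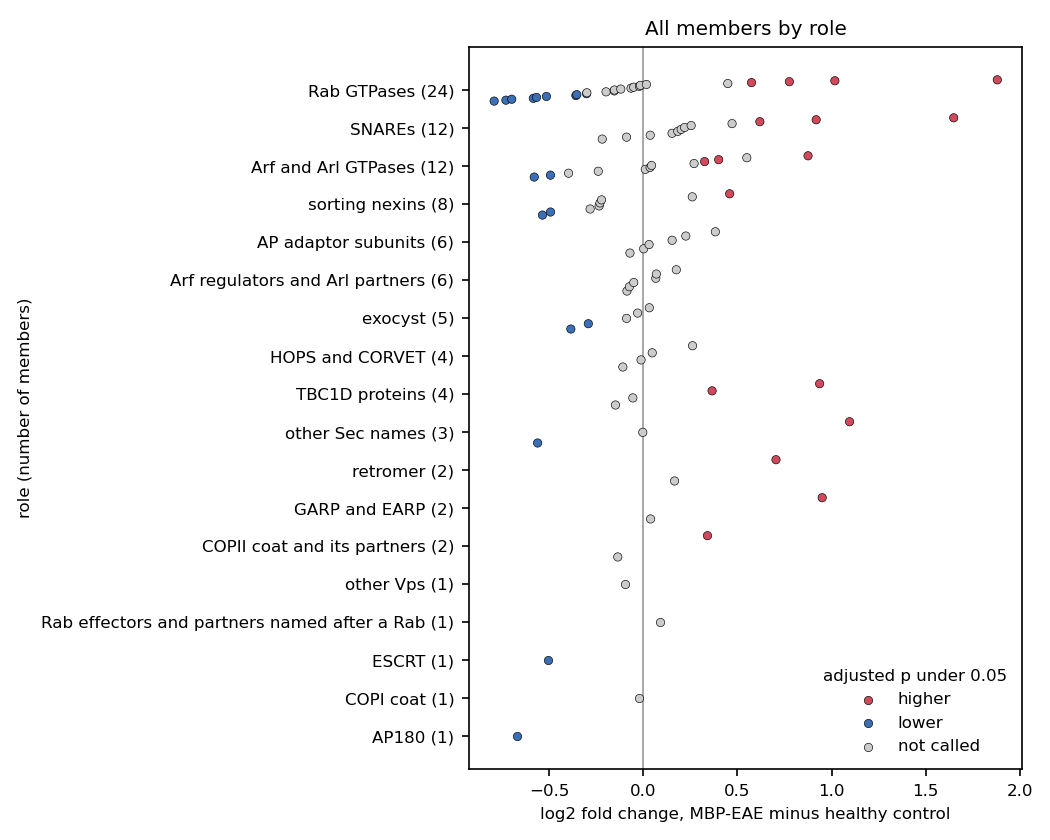
Log2 fold change (MBP-EAE minus healthy control, n = 4 rats in each group) on the horizontal axis for each of the 95 genes, grouped by role on the vertical axis with the number of genes in brackets. Coloured points are the 17 genes higher and the 18 lower at an adjusted p under 0.05, grey points the 60 that did not pass; Rab13, at 1.88, lies farthest to the right, and the SNARE row has 3 genes higher and 0 lower. The retromer row holds Vps26a and Vps35l, and the HOPS and CORVET row holds Vps33b by name alone.

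The Rab GTPases of the set were its largest family, and more of them fell than rose. Of 24 genes 4 were higher and 9 were lower (54.2% called), with a median log2 fold change of -0.15. All clusters also leaned downward, with 11.3% higher and 14.6% lower (25.9% called) and a median of -0.10. The 24 leave out names beginning with Rab3, among them Rab31 and Rab35, which were higher, and Rab30, which was lower. After cyclic loess the counts of the 24 were 5 and 5 and the median was -0.0023. Without MBP-EAE rat 219 the counts were 4 and 6. Rab13, which directs traffic to tight junctions and the leading edge of migrating cells, showed the largest rise of all 95 genes. It measured 5.56, 5.31, 5.53 and 5.31 in healthy rats 193, 194, 195 and 196 and 7.38, 7.54, 7.12 and 7.18 in MBP-EAE rats 217, 218, 219 and 241. The lowest diseased cord lay well above the highest healthy one, and the difference was 1.88 (SE 0.12), or 3.68-fold, with an adjusted p of 2.18e-06.

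Rab27a, which docks lysosome-related granules and exosome-bearing bodies at the plasma membrane, was dim in healthy cord and rose 2.02-fold. Its values in the same order of rats were 4.47, 4.28, 3.89 and 4.09, then 5.35, 5.37, 4.83 and 5.25, which did not overlap (log2 fold change 1.02, SE 0.16, adjusted p = 0.00111). Rat 195 was the lowest of the healthy cords and rat 219 the lowest of the diseased. Rab8a and Rab8b, which carry vesicles from the Golgi and recycling endosomes to the cell surface and the cilium, rose together. Rab8a measured 6.20 to 6.47 in healthy and 6.99 to 7.31 in MBP-EAE cords (0.78, SE 0.11, adjusted p = 0.000498). Rab8b measured 8.41 to 8.76 and 9.03 to 9.29 (0.58, SE 0.11, adjusted p = 0.0037). All 4 Rab genes that rose kept their call in each of the 17 alternative analyses.

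Among the Rab genes that fell, Rab21, which accompanies integrins through early endosomes, measured 8.18, 8.29, 8.40 and 8.53 in the healthy cords and 7.65, 7.47, 7.58 and 7.79 in the MBP-EAE cords. It fell by 0.73 with no overlap (SE 0.11, adjusted p = 0.000971). Rab28, known in human and mouse for its role in the photoreceptor cilium, measured 8.58, 8.77, 8.91 and 8.93, then 8.18, 8.11, 8.04 and 8.08. It fell by 0.70 (SE 0.10, adjusted p = 0.000851), and the diseased cords lay close together. Rab2a, of traffic between the endoplasmic reticulum and the Golgi, fell by 0.58 (SE 0.12, adjusted p = 0.00617). Rab18, found on lipid droplets and the endoplasmic reticulum, fell by 0.57 (SE 0.12, adjusted p = 0.0066). Rab26, of secretory granules and synaptic vesicles, fell by 0.51 (SE 0.13, adjusted p = 0.015). These 5 kept their call and direction in all alternatives.

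The other 4 Rab calls were less secure. Rab5a, the master GTPase of the early endosome, fell by 0.79, the largest fall of the 95 genes, and its groups overlapped. It measured 6.54, 7.38, 7.03 and 7.45 in the healthy cords and 6.34, 6.65, 5.70 and 6.56 in the MBP-EAE cords, so healthy rat 193 lay within the diseased range. Its adjusted p was 0.0394 (SE 0.25), and leaving out rat 194, 195, 196, 217, 219 or 241 raised it to between 0.0506 and 0.110. Rab11a, of the recycling endosome, fell by 0.36 (adjusted p = 0.0401), and the call was lost without any of 7 of the 8 rats (0.0524 to 0.110; rat 193 was the exception). Rab15, of endosomal recycling in neurones, was dim at 3.86 to 4.12 in healthy and 3.56 to 3.79 in MBP-EAE cords (adjusted p = 0.0442), and only leaving out rat 195 kept its call (0.0532 to 0.116 without each of the others). Rab27b fell by 0.35 (adjusted p = 0.0241), lost without rat 194, 196, 217, 218 or 241 (0.0502 to 0.0837). After cyclic loess none of these 4 was called, with adjusted p of 0.0755, 0.228, 0.295 and 0.0559 in the order named.

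Well-known endosomal and secretory Rab genes did not pass. Rab7a, the GTPase of the late endosome and lysosome, measured 10.82, 10.70, 10.05 and 10.54 in healthy and 11.03, 10.85, 10.93 and 11.11 in MBP-EAE cords. The groups did not overlap, rat 195 was the low healthy value, and the difference of 0.45 (SE 0.16) had an adjusted p of 0.0653. Rab7a passed in 5 of the 17 alternatives, among them cyclic loess (0.60, adjusted p = 0.0132) and the fit without rat 193 (0.0316). Rab9a, of the route from late endosome to Golgi, differed by -0.15 (adjusted p = 0.396), Rab4a, of fast recycling, by -0.30 (0.321), and Rab14, of the Golgi and endosomes, by -0.20 (0.235). Rab10, of exocytosis and the endoplasmic reticulum, and Rab1a, of the step from endoplasmic reticulum to Golgi, differed by -0.15 and -0.05 (adjusted p 0.280 and 0.758), and both signs turned to positive after cyclic loess.

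**Figure D2:**
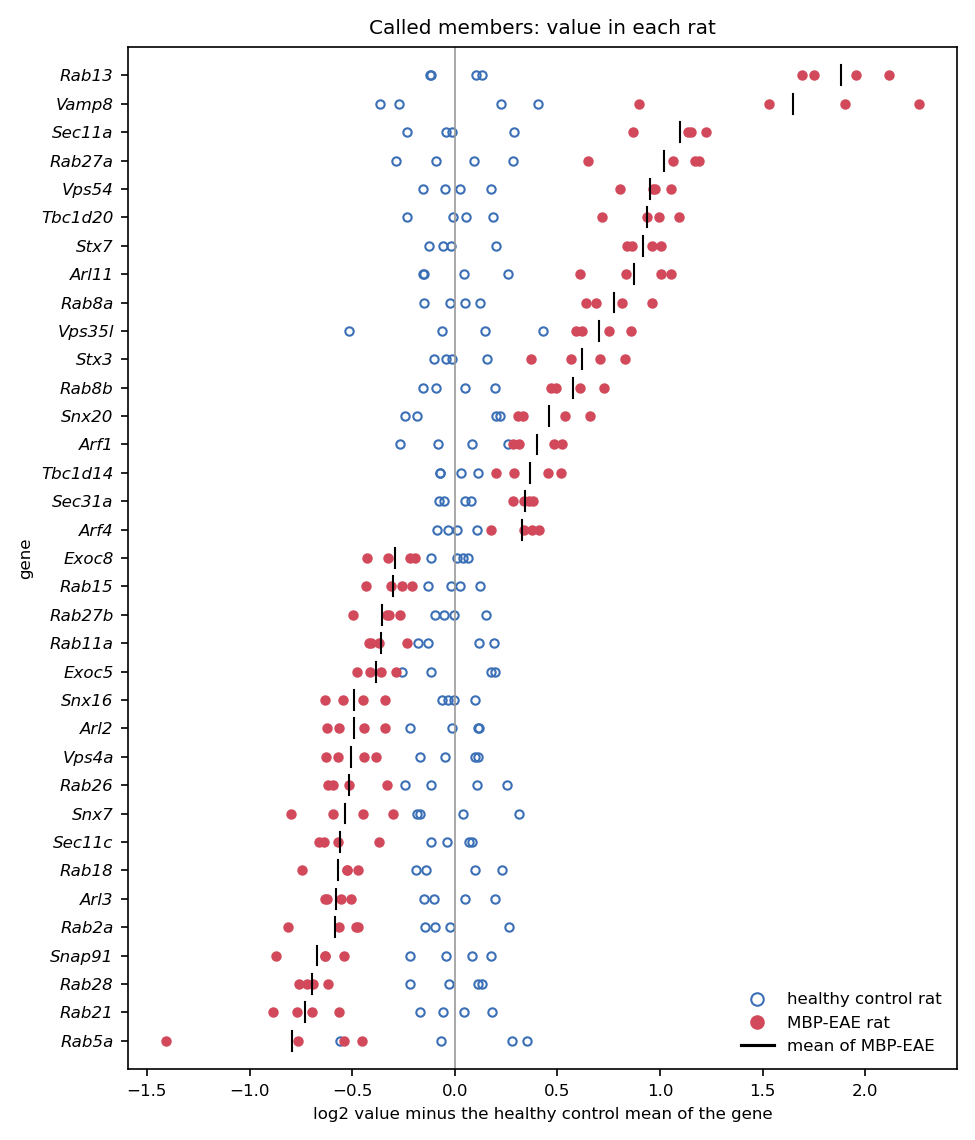
Each row is 1 of the 35 called genes, and the horizontal axis is a rat's log2 value minus the healthy control mean of that gene; open points are healthy control rats, filled points MBP-EAE rats (4 each) and bars the MBP-EAE mean. The 17 genes at the top rose, Rab13 by 1.88, and the 18 at the bottom fell; the groups overlap for Rab5a.

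The 3 calls among the SNARE proteins of the set were all upward. Of 12 genes 3 were higher and 0 lower, a share called close to the 25.9% of all clusters. The median log2 fold change was 0.21, against -0.10 for all clusters. After cyclic loess 6 were higher and 0 lower. That scaling also raised the share of calls that were higher over all clusters, from 43.7% to 58.1%. Vamp8 (endobrevin), a SNARE of late endosomes, autophagosome fusion and granule release in blood cells, was second to Rab13 in size. It measured 5.24, 5.05, 4.56 and 4.47 in the healthy cords and 6.36, 7.09, 5.73 and 6.73 in the MBP-EAE cords. It varied more between diseased rats than any other gene of the set, with rat 219 lowest and rat 218 highest, but the groups did not overlap (1.65, SE 0.28, 3.14-fold, adjusted p = 0.00194). Stx7, which pairs with Vamp8 in late endosome fusion, measured 6.87, 6.61, 6.54 and 6.65, then 7.63, 7.53, 7.51 and 7.68. The diseased cords were almost alike and all above the healthy ones (0.92, SE 0.10, adjusted p = 0.000113). Stx3, a plasma membrane SNARE, rose by 0.62 (SE 0.12, adjusted p = 0.00371), from 6.77 ± 0.11 in healthy cords to 7.39 ± 0.20 in MBP-EAE cords (SD, n = 4).

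The remaining SNAREs of the set were not called. Stx8, another partner in the late endosomal complex, differed by 0.15 (SE 0.18, adjusted p = 0.579). Vamp3, of recycling endosomes, differed by 0.18 (0.293), Vamp7, of lysosome exocytosis, by 0.20 (0.329), and Stx4, of the plasma membrane, by 0.04, a sign that turned without rat 194 or with array medians subtracted. Vamp5, whose gene is the next of the set beside Vamp8 on rat chromosome 4, was just past the threshold at 0.0533 (0.47, SE 0.16). It was dim, at 3.85 to 4.32 in healthy and 4.29 to 4.87 in MBP-EAE cords, and passed in 10 of the 17 alternatives, among them all 3 other scalings and the fits without rat 195 or 219 (0.0296 to 0.0388).

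The Arf and Arl GTPases were split, with 3 of 12 higher and 2 lower (41.7% called, against 25.9% of all clusters). The counts were 5 and 3 after cyclic loess and 1 and 4 with array medians subtracted. Arl11, a tumour suppressor candidate of the Arf-like family, measured 4.83, 5.02, 5.23 and 4.82 in healthy and 6.03, 5.98, 5.58 and 5.81 in MBP-EAE cords. It rose 1.83-fold (0.88, SE 0.13, adjusted p = 0.00104), with no overlap. Arl3, which releases lipid-modified cargo into the cilium, measured 8.85, 8.90, 9.20 and 9.05, then 8.49, 8.37, 8.37 and 8.45. It fell by 0.58 (SE 0.10, adjusted p = 0.00242), and its close relative Arl2, which acts with tubulin chaperones, fell by 0.49 (SE 0.11, adjusted p = 0.00927). These 3 calls held in all alternatives.

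Arf1, which recruits coats to the Golgi, and Arf4, which works beside it, were higher by 0.40 (SE 0.13, adjusted p = 0.0423) and 0.33 (SE 0.09, adjusted p = 0.0289). The call on Arf1 was lost without any of the rats except 193 (0.0628 to 0.109), and that on Arf4 without rat 194, 217, 218 or 241 (0.0734 to 0.0933). Arf6, of the plasma membrane and phagocytic cup, measured 6.84, 7.04, 6.45 and 6.77 in healthy cords and 7.72, 7.19, 6.86 and 7.53 in MBP-EAE cords. It did not pass (0.55, SE 0.19, adjusted p = 0.0618), and rat 219 lay within the healthy range. Arf6 passed in 4 of the 17 alternatives, among them cyclic loess (0.018) and the fit without rat 219 (0.0189). Of 6 genes for Arf regulators and Arl partners none was called, with log2 fold changes from -0.09 to 0.18.

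Endosomal sorting genes gave a few calls in each direction. Of 8 sorting nexins 1 was higher and 2 were lower (37.5% called, against 25.9% of all clusters). Snx16, a nexin of early and late endosomes, fell by 0.49 (SE 0.10, adjusted p = 0.00442), from 6.15, 6.18, 6.21 and 6.31 to 5.87, 5.76, 5.58 and 5.66, in all alternatives. Snx7 fell by 0.53 (SE 0.15, adjusted p = 0.0228), a call lost without rat 196, 219 or 241 (0.0605 to 0.0618), after cyclic loess (0.083) and by the methods' t-test (0.0591). Snx20, which binds the P-selectin ligand of leukocytes, was dim at 3.46 to 3.93 in healthy and 4.01 to 4.36 in MBP-EAE cords. It was higher by 0.46 (SE 0.14, adjusted p = 0.0366), lost without rat 193, 196, 217, 218 or 219 (0.0502 to 0.104). Snx1, a partner of the retromer, differed by -0.23 (SE 0.17, adjusted p = 0.343), and Vps26a, a core subunit of the retromer, by 0.17 (SE 0.10, adjusted p = 0.281).

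Vps35l, a subunit of the retromer-like retriever complex, measured 6.59, 6.31, 5.65 and 6.10 in the healthy cords and 6.91, 6.78, 6.75 and 7.02 in the MBP-EAE cords. Rat 195 was again the low healthy value. It rose by 0.71 (SE 0.18, adjusted p = 0.017), and of the 8 rats only leaving out 241 lost the call (0.0506). It was also lost by the methods' t-test after adjustment (0.0591). Vps54, the subunit particular to the GARP tether of vesicles returning from endosomes to the Golgi, measured 7.38, 7.28, 7.46 and 7.61, then 8.40, 8.24, 8.49 and 8.41. It rose 1.93-fold with a clear gap between the groups (0.95, SE 0.10, adjusted p = 0.000111), while Vps52, shared by GARP and its endosomal relative EARP, differed by 0.04 (adjusted p = 0.857). Vps4a, the ATPase that takes ESCRT filaments apart, fell by 0.51 (SE 0.10, adjusted p = 0.00551), from 7.27 to 7.55 down to 6.81 to 7.05. Vps16, Vps33a and Vps39, of HOPS and CORVET, and Vps33b, grouped with them by name alone, were all uncalled, with log2 fold changes from -0.11 to 0.26.

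Coats and tethers gave few calls. None of the 6 AP adaptor subunits of the set was called, the largest difference being 0.38 for Ap2b1 (adjusted p = 0.0678), and Ap1b1 differed by 0.23 (0.167). After cyclic loess 2 of the 6 were higher. Snap91 (AP180), which builds clathrin coats on synaptic vesicle membrane in neurones, measured 7.92, 7.80, 7.62 and 8.02 in healthy cords and 7.21, 6.97, 7.21 and 7.30 in MBP-EAE cords, and fell by 0.67 (SE 0.12, adjusted p = 0.00226). It entered the set by its Snap symbol and is no SNARE. Sec31a, of the outer COPII coat, was higher by 0.34 (SE 0.09, adjusted p = 0.0161), lost without rat 194, 196 or 217 (0.0529 to 0.0565). Copb1, of the COPI coat, differed by -0.02 (adjusted p = 0.904). Of 5 exocyst genes, whose complex holds secretory vesicles at the plasma membrane, 2 were lower (40.0%, against 25.9% of all clusters called). They were Exoc5 at -0.38 (adjusted p = 0.0422) and Exoc8 at -0.29 (0.0466), and both calls were lost after cyclic loess and without any of the rats except 193 (0.0563 to 0.122).

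Many TBC1D proteins switch Rab GTPases off. Tbc1d20, which acts on Rab1 and Rab18, measured 5.39, 5.19, 4.97 and 5.25 in the healthy cords and 6.29, 6.14, 5.92 and 6.19 in the MBP-EAE cords. It rose 1.91-fold (0.94, SE 0.12, adjusted p = 0.000339) with no overlap. Tbc1d14, which binds Rab11 and restrains autophagy, was higher by 0.37 (SE 0.10, adjusted p = 0.0263), lost without rat 194, 196, 217, 218 or 241 (0.0511 to 0.0833). The other 2 members, Tbc1d21 and Tbc1d22b, differed by -0.15 and -0.05 and were not called.

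The set holds 6 pairs of genes whose symbols differ only in the last letter, and in 2 of them the partners moved in opposite directions. Sec11a and Sec11c encode alternative catalytic subunits of the signal peptidase, an enzyme of the endoplasmic reticulum that is not part of vesicle sorting and entered by its symbol. Sec11a measured 7.50, 7.19, 6.97 and 7.16 in healthy and 8.43, 8.34, 8.07 and 8.36 in MBP-EAE cords (1.10, SE 0.13, adjusted p = 0.000196). Sec11c measured 10.47, 10.55, 10.66 and 10.68, then 9.93, 10.02, 9.95 and 10.22, and fell by 0.56 (SE 0.10, adjusted p = 0.00273). In each rat the difference Sec11a minus Sec11c was taken, and its mean was 1.66 larger in MBP-EAE (SE 0.18). For Rab27a minus Rab27b it was 1.37 larger (SE 0.21). In both pairs the gene that rose lay wholly above its healthy values and the gene that fell wholly below. Their difference therefore had to separate the groups, and its p was fixed by the single-gene results. That p, 0.0286 by a two-sided exact permutation test, is the smallest that 4 against 4 rats can give. After adjustment over the 6 pairs it was 0.0857.

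The Rab8 pair differed by 0.20 (SE 0.16, exact permutation p = 0.171), the Rab4 pair by -0.28 (0.2), the Rab11 pair by -0.24 (0.429) and the Vps33 pair by -0.06 (0.8). The pairs were chosen after their values had been seen. The 250 bases upstream of the genes of the opposed pairs are shown where the window lay outside the annotated span of the gene, which leaves out Rab27b, with motif matches in capitals (GRCr8):

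Sec11a (chr1:144318659-144318908, minus strand): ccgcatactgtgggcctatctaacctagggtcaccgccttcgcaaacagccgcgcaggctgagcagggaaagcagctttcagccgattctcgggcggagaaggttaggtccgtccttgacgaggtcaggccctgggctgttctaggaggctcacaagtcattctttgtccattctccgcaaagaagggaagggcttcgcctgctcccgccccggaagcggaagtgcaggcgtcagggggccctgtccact
Sec11c (chr18:61590655-61590904, plus strand): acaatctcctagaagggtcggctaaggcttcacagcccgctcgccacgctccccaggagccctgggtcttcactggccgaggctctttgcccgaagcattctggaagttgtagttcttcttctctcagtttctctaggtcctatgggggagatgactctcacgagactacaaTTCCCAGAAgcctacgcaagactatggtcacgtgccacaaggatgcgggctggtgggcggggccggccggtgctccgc
Rab27a (chr8:82663123-82663372, plus strand): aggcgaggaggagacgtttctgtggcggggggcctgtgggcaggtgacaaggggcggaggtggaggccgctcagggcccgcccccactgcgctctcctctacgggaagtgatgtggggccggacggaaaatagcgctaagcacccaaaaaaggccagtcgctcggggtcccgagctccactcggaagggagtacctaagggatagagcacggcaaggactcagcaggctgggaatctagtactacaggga

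Sec11c had 1 match to the gamma-activated site and Sec11a and Rab27a had 0 matches to any of the 6 motifs. G and C made up 61.2% of the Sec11a window, 59.2% of the Sec11c window and 63.6% of the Rab27a window, with 16, 14 and 16 CG pairs.

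**Figure D3:**
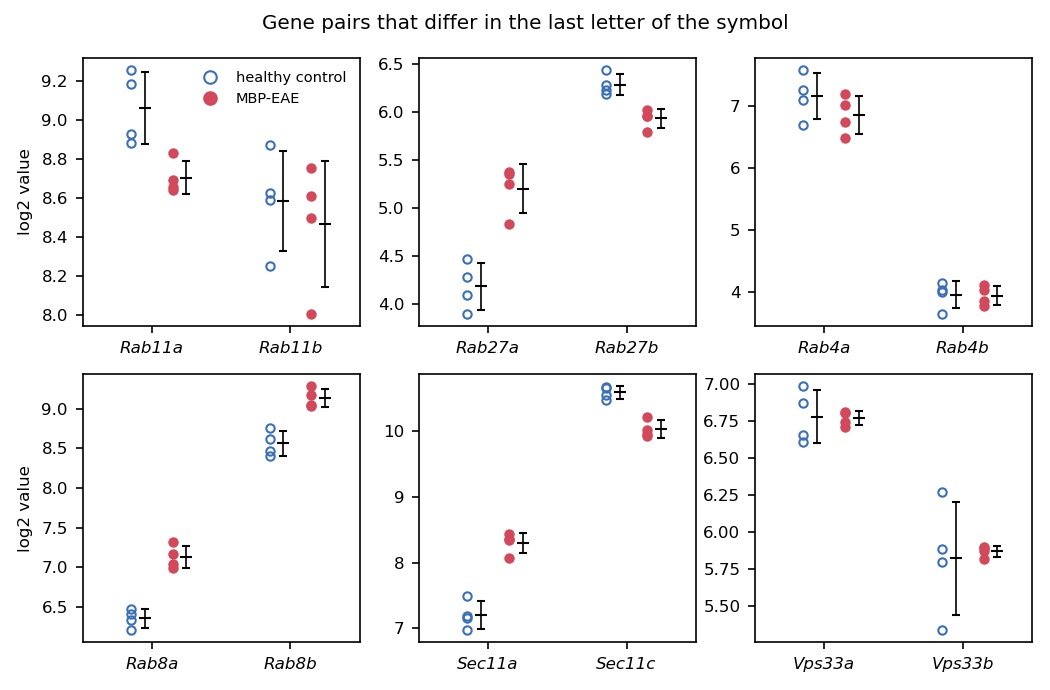
Log2 values in each rat (vertical axis; open points healthy control, filled points MBP-EAE, 4 rats each, with the mean and SD beside them) for the 6 pairs of genes whose symbols differ in the last letter. Each panel has its own axis range, and levels of different genes are not compared. Sec11a and Rab27a rose while Sec11c and Rab27b fell, and both members of the Rab8 pair rose.

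Genes with other names that serve the same machinery were counted by role, and the shares called are to be read against the 25.9% of all clusters. Of 22 Rab regulators and effectors 1 was higher and 4 were lower (22.7%). Ehd4, an ATPase of endosomal tubules, rose by 1.29 (SE 0.13, adjusted p = 6.32e-05). Sytl5 fell most, by 0.95 (SE 0.11, adjusted p = 0.000167), and Rufy3 fell by 0.50 (SE 0.11, adjusted p = 0.00804). Rabep1 (rabaptin 5), an effector of Rab5, fell by 0.66 (SE 0.11, adjusted p = 0.00132). Chm, the escort protein that presents Rab proteins for lipid attachment, fell by 0.48 (SE 0.13, adjusted p = 0.0203). Of 12 Arf regulators 2 were higher and 2 lower (33.3%), led by the GTPase-activating protein Adap2 at 2.29 (SE 0.15, adjusted p = 2.67e-06). For clathrin, its adaptors and dynamin the counts were 3 higher and 6 lower of 23 (39.1%). The amphiphysin gene Amph fell by 0.58 (SE 0.14, adjusted p = 0.0147) and Dnm3 by 0.61 (SE 0.12, adjusted p = 0.00357). Bin1, Sh3gl3, Sh3glb2 and Epn2 also fell, by 0.60, 0.60, 0.43 and 0.39. The dynamin gene Dnm2 rose by 0.65 (SE 0.11, adjusted p = 0.00184) and the endocytic adaptor gene Dab2 by 1.34 (SE 0.15, adjusted p = 0.000129). Gak rose by 0.37 (SE 0.12, adjusted p = 0.0494). Dnm1 and Synj1 were not called (adjusted p 0.0768 and 0.134).

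Sorting receptors and their cargo gave 4 higher and 1 lower of 9 (55.6%). Cd63, the tetraspanin of late endosomes and exosomes, rose 2.84-fold (adjusted p = 1.2e-05). M6pr, a mannose 6-phosphate receptor that delivers lysosomal enzymes, rose by 0.50 (SE 0.09, adjusted p = 0.00267). Igf2r, another such receptor, was not called (-0.12, SE 0.11, adjusted p = 0.452). Tethers of the Golgi and endosome gave 0 higher and 4 lower of 13 (30.8%), with Trappc2 at -0.69 (SE 0.12, adjusted p = 0.0026). SNARE partners and SNAREs with other names gave 3 higher and 1 lower of 14 (28.6%). Stxbp2 (Munc18-2), the partner of Stx3 in granule release, rose by 0.87 (SE 0.11, adjusted p = 0.000216). Bet1, a SNARE, was the gene that fell, by 0.50 (SE 0.12, adjusted p = 0.0122). The ESCRT genes without a Vps name gave 1 higher and 0 lower of 10 (10.0%). Counts were 2 and 0 of 13 (15.4%) for the early secretory cargo receptors and GTPases. For the phosphoinositide enzymes and retromer partners they were 1 and 1 of 7 (28.6%).

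**Figure D4:**
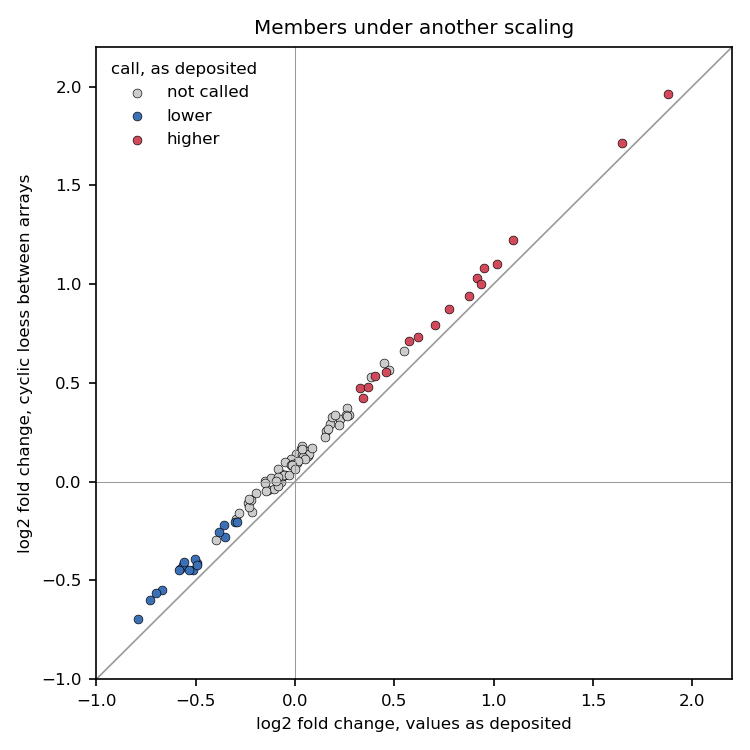
Log2 fold change of each of the 95 genes as deposited (horizontal axis) against the value after cyclic loess between arrays (vertical axis), MBP-EAE minus healthy control. The points lie above the line of equality, the median moving from -0.01 to 0.10, and calls go from 17 higher and 18 lower to 25 and 12.

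The genes nearest the threshold on the called side were Snx20, Rab5a, Rab11a, Exoc5, Arf1, Rab15 and Exoc8, with adjusted p from 0.0366 to 0.0466. On the other side were Vamp5, Arl9, Snx10, Arf6, Rab7a and Ap2b1, from 0.0533 to 0.0678. The methods' t-test also lost Arf1, Snx20, Rab5a, Rab11a and Exoc5 (adjusted p 0.0527 to 0.118), and subtracting array medians lost Arf1 and Arf4. Of the 35 called genes, 22 kept call and direction in each of the 17 alternative analyses. The 11 that were higher are Rab13, Rab27a, Rab8a, Rab8b, Vamp8, Stx7, Stx3, Arl11, Vps54, Tbc1d20 and Sec11a. The 11 that were lower are Rab21, Rab28, Rab2a, Rab18, Rab26, Arl2, Arl3, Snx16, Vps4a, Snap91 and Sec11c.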

How the data were processed

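The authors deposited log2 expression values for 8793 transcript clusters on 8 arrays. Per the labels and the study's methods the arrays went through RMA (background correction that took account of probe GC content, then quantile normalisation), and a cluster's value is the average of its core probe sets (Affymetrix Expression Console and Partek, genome build rn4). The study's test used a batch factor; the batch of each array is not given in the sources used here and could not enter. The values carry no detection calls or p-values, and the number of arrays limits the precision. All value columns were used.

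Gene symbols came from the platform annotation, in which 7603 clusters have 1 symbol, 409 several and 781 none or no entry. All 95 members matched the RefSeq gene table (GRCr8) by gene ID. Groups were compared with limma 3.58.1 in R 4.3.3 (lmFit, eBayes) over all clusters, with Benjamini-Hochberg adjustment and a threshold of 0.05; per-gene pair differences used an exact permutation test (scipy 1.17.1). Each rat is 1 replicate. Named genes were, among calls whose groups did not overlap, the 12 that rose most and the 12 that fell most, the leading call of each role, calls against their role's majority and a list of landmark genes; genes beside the threshold, gene pairs and less secure calls were named as well, after their values were seen. The members and lists were chosen with earlier results of these data known. The naming rule covered members only, so genes of the lists were named without a rule. Alternatives were an equal-variance t-test, another variance prior, array weights, a filter that leaves out the dimmest 25% of clusters and 3 further scalings. Further alternatives were clusters with 1 symbol only, 1 mean per gene, each rat left out in turn, and a narrower reading of the excluded names. The t-test took the groups alone and was adjusted over all clusters, whereas the study's longer gene list took a p under 0.05 before any adjustment.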

Additional observations from a re-analysis of the deposited data

How the results depend on the processing

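No paired analysis was possible because the rat numbers in the labels are not shared between the groups. Leaving out each rat in turn gave 12 to 18 of the 95 genes higher and 11 to 17 lower, against 17 and 18 with all rats; the lowest counts of lower genes, 11 each, came without healthy rat 196 and without MBP-EAE rat 241. Over all clusters the range was 809 to 1062 higher and 835 to 1441 lower, against 994 and 1280; without rat 196 the lower clusters were 835 and without rat 217 they were 850. Leaving out a rat also leaves fewer samples. Array weights, which gave rat 195 a weight of 0.264, raised the lower clusters to 2222 and gave 23 higher and 22 lower of the 95 genes; the cause was not tested. The equal-variance t-test called 14 higher and 17 lower of the 95 genes. With array medians subtracted 16 were higher and 21 lower, and with quantile normalization again 19 and 19. Reading the excluded names narrowly gave 19 higher and 19 lower of 103. Of 730 values of single named genes under the alternatives, 664 stayed on the same side of the threshold with the same direction, 52 lost the call and 14 gained it. Among the named genes signs turned for Rab10, Rab1a and Stx4. Over all 95 genes the sign turned after cyclic loess for 16, of which 0 were called before and 0 after. Arrays limit low values, and Rab27a, Snx20, Rab15, Arl9 and Vamp5 lay near the lower quartiles of the healthy arrays (3.87 to 4.28).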

Other observations

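The names Rab30 to Rab39 and Stx12 to Stx18 begin with the same characters as the synaptic Rab3 and Stx1 genes and were left out with them, although they are other genes. There were 8 of them on the array. Rab31, a Rab5 relative of the Golgi and endosomes, was higher in MBP-EAE by 0.66 (SE 0.12, adjusted p = 0.00342, limma). Rab35, of fast recycling to the plasma membrane, was higher by 0.52 (SE 0.15, adjusted p = 0.0264), with groups that overlapped. Rab30, of the Golgi, fell by 0.66 (SE 0.10, adjusted p = 0.000761). Rab34, Rab38, Stx12, Stx17 and Stx18 did not pass, with log2 fold changes from -0.16 to 0.10.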
